A study of Homo sapiens with 11 samples.

Results

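The gp130 cytokine pathway was followed in PC3 and DU145 prostate cancer cells through 10 genes, which were the ligand gene LIF, the receptor genes IL6R, IL6ST, LIFR and OSMR, the kinase genes JAK1 and JAK2, the transcription factor gene STAT3, and the feedback inhibitor genes SOCS3 and SOCS2. They were chosen by pathway role and found by Entrez identifier in the count table of each line, where they are 10 of 28395 genes. PC3 and DU145 are established human lines, derived from prostate cancer metastases in bone and brain. In each line, cells transduced with lentiviral particles carrying ST6GAL1, the enzyme that adds α2-6-linked sialic acid to N-glycans, were compared with cells transduced with negative control particles, so the control cells also carry a lentivirus. RNA-Seq was available for 3 PC3 control, 3 PC3 ST6GAL1 overexpression (OE), 3 DU145 control and 2 DU145 OE libraries, the latter numbered replicates 2 and 3. The libraries are described as biological repeats, but whether they came from separate transductions is not given in the sources used here, and p-values therefore measure the spread between these libraries. The promoter that drives the ST6GAL1 transgene is likewise not given in the sources used here.

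Cytokines of the IL-6 family act through gp130, the shared signalling receptor that IL6ST encodes. The receptor complex of IL-6 includes IL6R, that of leukaemia inhibitory factor (LIF) includes LIFR, and that of oncostatin M includes OSMR or LIFR. Each complex also includes gp130. The bound receptors activate the tyrosine kinases JAK1 and JAK2, which phosphorylate STAT3, and phosphorylated STAT3 moves to the nucleus and switches on target genes. SOCS3 is such a target and binds gp130 and JAK kinases to stop the signal, while SOCS2 is a related inhibitor best known from growth hormone signalling through STAT5. gp130 and its partner receptors carry N-glycans on the cell surface. None of the measurements here concerns protein, phosphorylation or sialylation, only RNA.

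SOCS2, an inhibitor gene, had the largest log2 fold change of the members with ST6GAL1 overexpression in both lines, in size and regardless of sign. SOCS2 RNA fell in both lines, to 0.491 times the control mean in PC3 and 0.586 times in DU145, and SOCS3 RNA fell in PC3 to 0.665 times the control mean. STAT3 itself was read at 0 in all 6 PC3 libraries and at 315.5 to 377.3 normalised CPM (counts scaled to library size) in DU145. The receptor genes IL6ST and OSMR were higher in DU145 OE cells than in DU145 control cells, at 1.27 and 1.48 times the control mean, without passing the fold change threshold. JAK1 and JAK2 did not pass the test in either line with all libraries. The plot of normalised CPM by library shows each value.

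**Figure D1:**
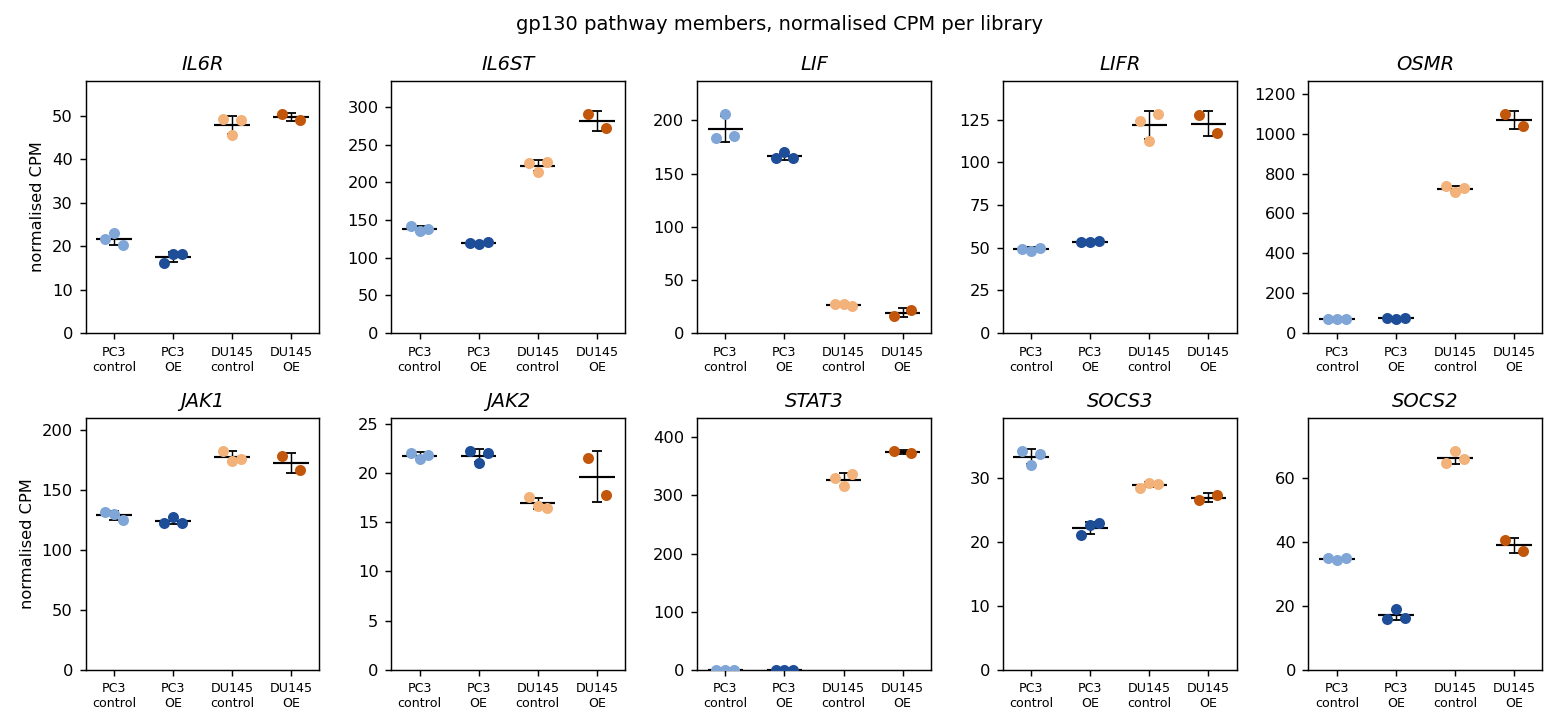
Normalised CPM (y axes, linear, each from 0) of the 10 members in every library, by line and treatment (OE, ST6GAL1 overexpression). Points are libraries, the horizontal bar is the group mean and the error bar 1 SD (n = 3, and n = 2 for DU145 OE). SOCS2 lies lower in OE libraries in both lines, SOCS3 lies lower in PC3 OE libraries, and STAT3 is at 0 in all 6 PC3 libraries.

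Library totals ran from 13194485 to 18201359 counts over the 11 libraries, and a count of 3, taken as the floor, equalled 0.165 to 0.204 normalised CPM in PC3. Floors cover counting error only. ST6GAL1 was read at 2.09 to 3.07 normalised CPM in PC3 control and 31.7 to 33.3 in PC3 OE libraries, and at 11.4 to 14.3 in DU145 control and 298.7 and 346.6 in DU145 OE libraries, which cannot separate transgene from endogenous transcripts. The DU145 OE replicates stood apart from each other, with an SD of their log2 differences of 0.270 against 0.109 to 0.166 in the other replicate pairs, and with a Pearson correlation of -0.75 between that difference and GC content across 11236 genes. Where leaving out 1 of these libraries ended or made a member's call within DU145, the value without it is given beside the result. The same holds for other genes named here whose DU145 call it ended. All 6 epithelial markers (such as KRT8 and EPCAM) were read in every group, with a summed level of 1006 to 1039 normalised CPM in PC3 control, 1058 to 1074 in PC3 OE, 1311 to 1348 in DU145 control and 1065 to 1207 in DU145 OE libraries, so that the sums were higher with overexpression in PC3 and lower in DU145, without overlap. The prostate genes KLK3 and KLK2 were at or under the floor in both lines, as was TMPRSS2 in DU145. The 6 leukocyte markers summed to 0.443 to 0.717 normalised CPM in PC3 control and 0.758 to 0.953 in PC3 OE libraries, and to 1.65 to 2.31 in DU145 control and 2.71 to 2.96 in DU145 OE libraries, higher with overexpression in both lines without overlap. Of these markers 4 of 6 were at or under the floor in PC3, where PTPRC and CD14 were above it, and 5 of 6 in DU145, where CD14 was above it. Of the 6 fibroblast markers COL1A2, DCN and LUM were at or under it, the sum being 29.0 to 36.3 in PC3 and 3.80 to 7.33 in DU145. Of the 4 endothelial markers CDH5 was at or under the floor in every group, with sums of 12.2 to 14.7 in PC3, and of 0.571 to 0.673 in DU145 control and 0.967 to 2.01 in DU145 OE libraries, which did not overlap. The part of these marker levels in the results was not tested.

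STAT3, the transcription factor at the end of the pathway (Entrez 6774), lies on chromosome 17 between 42313324 and 42388442 in GRCh38, the build of all positions given here. It had 0 counts in each of the 6 PC3 libraries. In DU145 it was read at 5002, 4973 and 4496 counts in control replicates 1 to 3 and at 5853 and 6676 in OE replicates 2 and 3. Set against the floor of 3 counts per library, STAT3 was at least 1775-fold higher in DU145 control than in PC3 control libraries. PC3 is known as a line without STAT3, and these libraries hold no read assigned to the gene with or without ST6GAL1 overexpression.

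The genes beside STAT3 on chromosome 17 were read for the 10 rows of the count tables on either side of it. A run of 14 consecutive genes from DHX58 to MIR5010, spanning 42101411 to 42522579 (421 kb), was at or under 3 counts in every PC3 library, and 13 of them were at 0 in all 6. The exception was ATP6V0A1, a proton pump subunit, with 9 counts in all PC3 libraries together and at most 3 in any. In DU145, 9 of these 14 genes were above the floor, among them STAT5A and STAT5B, the STAT factors of prolactin and growth hormone signalling, and CAVIN1, a structural protein of caveolae. STAT5B was read at 1063 to 1311 counts per library in DU145 and STAT5A at 70 to 138, so that DU145 control exceeded PC3 control at least 427.3-fold for STAT5B and at least 47.3-fold for STAT5A. On the flanks, reads returned: ZNF385C had 23 to 70 counts per PC3 library and NAGLU, a lysosomal enzyme, had 204 to 286.

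Against the rest of the genome this run stood out by its length. Of 10538 autosomal genes with at least 50 counts in every DU145 library, 158 (1.50%) were at or under 3 counts in every PC3 library. The longest run of such genes in chromosomal order held 8 genes and contained STAT3, and the second longest held 2. The number of DNA copies of this stretch was not measured here. The plot of STAT3 and its neighbours shows the step on each side.

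**Figure D2:**
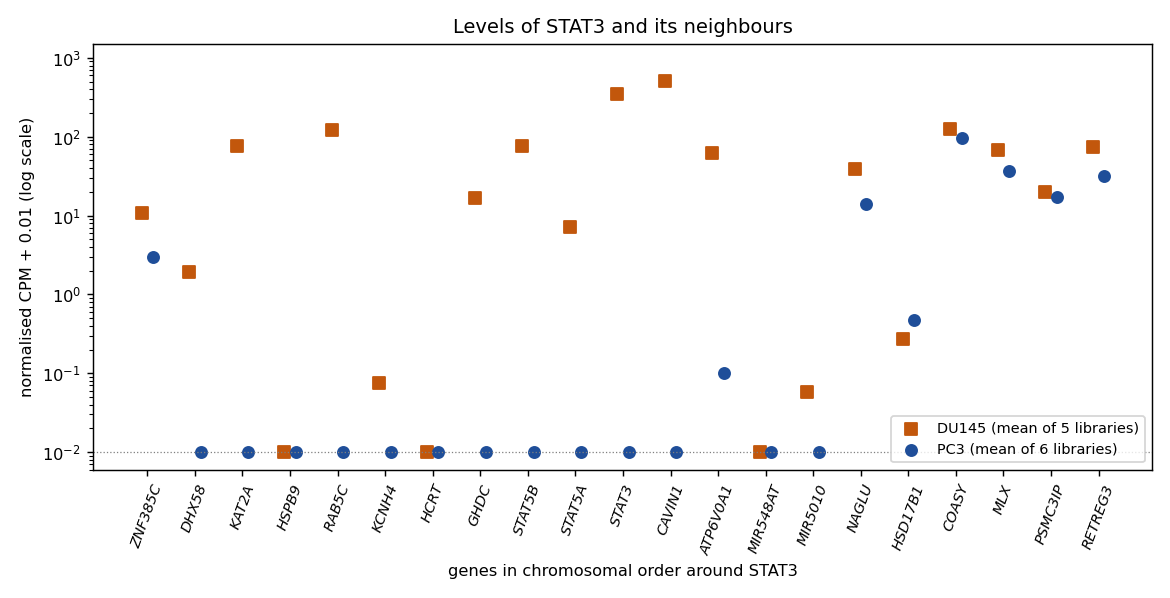
Mean normalised CPM plus 0.01 (y axis, log scale) of STAT3 and the 10 listed genes on each side of it, in chromosomal order (x axis, not to scale), over the 6 PC3 libraries (circles) and the 5 DU145 libraries (squares). The dotted line is 0 counts. In PC3 the 14 genes from DHX58 to MIR5010 lie at or near the line, while ZNF385C and NAGLU on the flanks are read in both lines.

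In DU145 the STAT3 level was 330.5, 315.5 and 336.3 normalised CPM in the control replicates and 377.3 and 372.7 in the OE replicates. The groups did not overlap. The log2 fold change was 0.20 (standard error 0.0724), and edgeR's adjusted p of 0.0650 missed the threshold of 0.05. The adjusted p was 0.0457 with DESeq2, 0.0365 with the replicate number as a block and 0.0147 with a correction for GC content. Log2 fold changes in these fits were 0.20, 0.21 and 0.19. It missed the threshold with limma-voom (0.0634), RLE factors (0.0724), no filter (0.0777) and at least 10 counts in every sample (0.0674). Log2 fold changes there were 0.20, 0.20, 0.19 and 0.20. It was 0.117 without OE replicate 2, and 0.213, 0.238 and 0.109 without control replicates 1, 2 and 3, at log2 fold changes of 0.18, 0.19, 0.16 and 0.21. A gene was called changed where edgeR's Benjamini-Hochberg adjusted p was under 0.05 and the absolute log2 fold change over 0.58. STAT3 was below that fold change in every fit.

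Of the 9 members tested in PC3, 2 were called, both lower with ST6GAL1 overexpression, where 5.38% of the 13544 genes tested were called (3.61% higher and 1.76% lower). Of the 10 tested in DU145, 1 was called, also lower, where 8.94% of 13676 genes were called (4.33% higher and 4.61% lower), and without OE replicate 3 the DU145 count was 3, adding LIF and OSMR. By adjusted p alone, 6 members passed in PC3 (1 higher, 5 lower) against 37.3% of genes, and 4 in DU145 (2 higher, 2 lower) against 20.1%. The median log2 fold change of the members was -0.20 in PC3 and 0.04 in DU145, beside -0.00 over all genes tested in each line. Control and OE libraries did not overlap for 7 members in PC3 and 7 in DU145, where this held for 46.1% and 48.4% of genes tested.

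**Figure D3:**
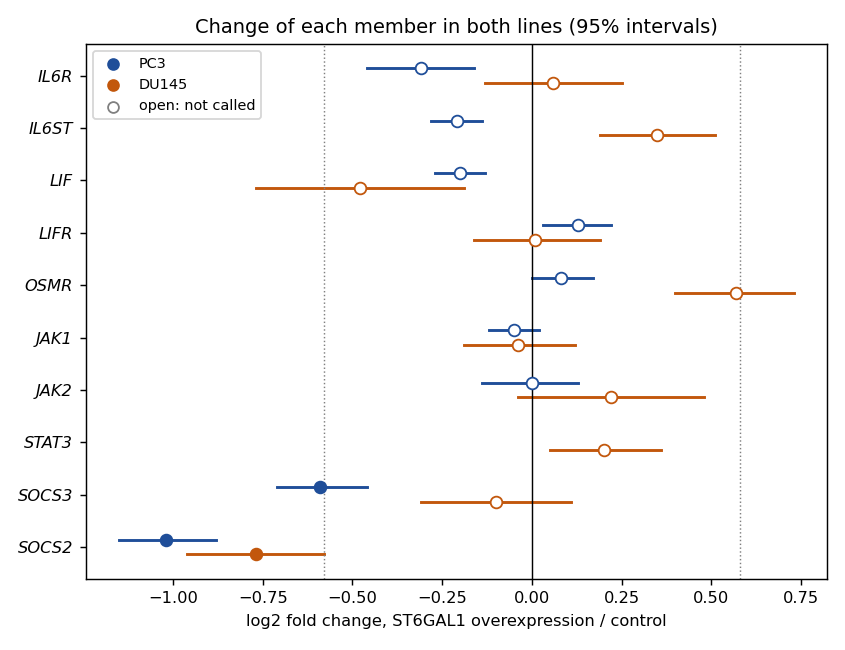
Log2 fold change of each member with ST6GAL1 overexpression (x axis) in PC3 and DU145, with 95% intervals from the edgeR fit; filled points were called and dotted lines mark the fold change threshold of 0.58. SOCS2 was called in both lines, SOCS3 in PC3 only, and STAT3 has no PC3 value because it was read at 0 there.

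SOCS2, the inhibitor of the growth hormone receptor pathway (Entrez 8835, chromosome 12, 93569969 to 93626236), was read at 34.8, 34.3 and 35.0 normalised CPM in the PC3 control replicates and at 16.0, 18.9 and 16.2 in the PC3 OE replicates. Every OE library lay below every control library. In RNA from whole cultures, less RNA per cell and fewer expressing cells cannot be told apart. The log2 fold change was -1.02 (standard error 0.0668, edgeR adjusted p = 3.25e-16). In DU145 the values were 64.7, 68.5 and 65.8 in control and 40.6 and 37.1 in OE libraries, again without overlap, and the log2 fold change was -0.77 (standard error 0.0884, edgeR adjusted p = 3.46e-05). The DU145 fall was -0.84 without OE replicate 2 and -0.70 without OE replicate 3, and SOCS2 stayed called in both fits. The test of the difference between the lines gave 0.25 (standard error 0.104, edgeR adjusted p = 0.101). SOCS2 was the only member called in both lines under these thresholds.

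SOCS3, the feedback inhibitor of gp130 (Entrez 9021, chromosome 17, 78356778 to 78360925), was read at 34.3, 32.1 and 33.7 normalised CPM in PC3 control and 21.1, 22.6 and 22.9 in PC3 OE replicates. The groups were well apart, and the log2 fold change was -0.59 (standard error 0.0615, edgeR adjusted p = 2.36e-10). In DU145 it was read at 28.5, 29.3 and 29.1 in control and 26.5 and 27.4 in OE replicates, a log2 fold change of -0.10 (standard error 0.0972, edgeR adjusted p = 0.519). The PC3 value lay at the edge of the fold change threshold and missed it without OE replicate 1 (-0.56) or without control replicate 1 (-0.57), with adjusted p-values of 2.44e-08 and 1.31e-09. The DU145 value changed sign, to 0.09, with a correction for GC content. Taken over each gene's longest annotated transcript, SOCS3 has the highest GC content of the members (60.0%).

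Neighbouring genes were read beside these values. The 20 nearest tested genes had a median log2 fold change of 0.01 around SOCS2 and -0.00 around SOCS3 in PC3, and of -0.07 around SOCS2 in DU145. Around SOCS3 in DU145, where SOCS3 itself did not pass, the median was -0.27.

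The 250 bases before the start of each member's canonical transcript, read from hg38 with GENCODE start sites, were searched for TTCNNNGAA, a pattern that STAT factors bind and that reads the same on both strands. It was found in 2 of the 10 members' windows, those of SOCS3 and LIF, where 5.67% of 20033 protein-coding promoters of this length (1136) hold it. Its first base lies 64 bases before the SOCS3 start and 202 bases before the LIF start. A match describes letters only. The gene with the pattern nearest its start, SOCS3, was called lower in PC3, where neither STAT3, STAT5A nor STAT5B was read. SOCS2, whose window does not hold these letters, was called lower in both lines. Sites outside the windows were not searched.

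IL6ST, which encodes gp130 (Entrez 3572, chromosome 5, 55935095 to 55994963), was read at 141.9, 135.0 and 137.5 normalised CPM in PC3 control and 119.3, 118.0 and 121.0 in PC3 OE replicates. In DU145 the values were 225.3, 213.2 and 227.1 in control and 290.7 and 271.5 in OE replicates. The OE libraries lay below the controls in PC3 and above them in DU145, with no overlap in either line. The log2 fold change was -0.21 in PC3 (standard error 0.0334, edgeR adjusted p = 2.34e-06) and 0.35 in DU145 (standard error 0.0737, edgeR adjusted p = 0.00419). Neither reached the fold change threshold, and their difference, 0.55 (standard error 0.0689, edgeR adjusted p = 9.38e-06), had the smallest adjusted p of the members. The 20 nearest tested genes had a median of -0.11 in PC3 (5 higher) and 0.08 in DU145 (14 higher). IL6ST has the lowest GC content of the members, 36.5% over its longest annotated transcript. With a correction for GC content its log2 fold changes were -0.18 in PC3 and 0.27 in DU145.

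OSMR, the oncostatin M receptor (Entrez 9180, chromosome 5, 38846012 to 38945579), was read at 735.5, 706.0 and 729.6 normalised CPM in DU145 control and 1099 and 1038 in DU145 OE replicates. Both OE libraries were above all controls, and the log2 fold change of 0.57 (standard error 0.0767, edgeR adjusted p = 0.000135) lay just inside the fold change threshold. Without OE replicate 3 it was 0.61 and called, and without OE replicate 2 it was 0.51. In PC3 the values were 68.6, 69.1 and 71.2 in control and 74.4, 71.2 and 75.9 in OE replicates, and the log2 fold change was 0.08 (standard error 0.0410, edgeR adjusted p = 0.102). The 20 nearest tested genes in DU145 had a median of 0.14, and 15 of them were higher.

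IL6R, the receptor that gives IL-6 its specificity (Entrez 3570, chromosome 1, 154405343 to 154469450), was read at 21.7, 23.1 and 20.2 normalised CPM in PC3 control and 16.1, 18.2 and 18.1 in PC3 OE replicates. The groups did not overlap, and the log2 fold change was -0.31 (standard error 0.0744, edgeR adjusted p = 0.000978). In DU145 it was read at 49.4, 45.6 and 49.0 in control and 50.5 and 49.2 in OE replicates, which overlapped, and the log2 fold change was 0.06 (standard error 0.0872, edgeR adjusted p = 0.669). LIFR (Entrez 3977, chromosome 5, 38474668 to 38608403) was read at 47.9 to 50.1 in PC3 control and 53.1 to 54.2 in PC3 OE libraries, a log2 fold change of 0.13 (standard error 0.0459, edgeR adjusted p = 0.0260). The adjusted p was 0.0256 with limma-voom but 0.116 with DESeq2. With edgeR it also missed 0.05 without OE replicate 2 (0.0696), OE replicate 3 (0.0821) or control replicate 2 (0.0802). In DU145 its libraries overlapped, at 112.7 to 128.4 in control and 117.5 and 127.7 in OE, with a log2 fold change of 0.01 whose 95% interval ran from -0.16 to 0.19.

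LIF, the ligand of LIFR (Entrez 3976, chromosome 22, 30240453 to 30246759), was read at 183.8, 206.1 and 185.4 normalised CPM in PC3 control and 164.6, 170.1 and 164.3 in PC3 OE replicates. No library of one group reached the other, and the log2 fold change was -0.20 (standard error 0.0352, edgeR adjusted p = 1.39e-05). In DU145 it was read at 27.2, 27.3 and 25.2 in control and 15.9 and 22.0 in OE replicates, a log2 fold change of -0.48 (standard error 0.133, edgeR adjusted p = 0.0216). The DU145 value was -0.28 (adjusted p = 0.0924) without OE replicate 2 and -0.73 (adjusted p = 0.000114) without OE replicate 3. Without control replicates 1, 2 and 3 it was -0.48, -0.48 and -0.53, and the adjusted p was 0.111, 0.138 and 0.0651. The longest annotated transcript of LIF has a GC content of 57.1%, and with a correction for GC content the log2 fold change was -0.38 (adjusted p = 0.00861).

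JAK1, the kinase that gp130 signalling mainly uses (Entrez 3716, chromosome 1, 64833229 to 65067746), was read at 124.8 to 131.5 normalised CPM in PC3 control and 122.3 to 127.4 in PC3 OE libraries. In DU145 it was read at 173.8 to 182.6 in control and at 178.1 and 166.5 in OE replicates. The groups overlapped in both lines. Log2 fold changes were -0.05 in PC3 (95% interval -0.12 to 0.02, edgeR adjusted p = 0.253) and -0.04 in DU145 (95% interval -0.19 to 0.12, edgeR adjusted p = 0.772). JAK2 (Entrez 3717, chromosome 9, 4984390 to 5129948) was read at 21.4 to 22.1 in PC3 control and 21.0 to 22.3 in PC3 OE libraries, and at 16.5 to 17.6 in DU145 control and 21.5 and 17.8 in DU145 OE replicates. Its log2 fold change was -0.00 in PC3 (95% interval -0.14 to 0.13, edgeR adjusted p = 0.986) and 0.22 in DU145 (95% interval -0.04 to 0.48, edgeR adjusted p = 0.242). Without OE replicate 2 the DU145 value of JAK2 was 0.06 (adjusted p = 0.782), and without OE replicate 3 it was 0.35 (adjusted p = 0.0295). With all libraries, the intervals of both kinases lie within the fold change threshold on each side.

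The lines also differed in these genes between their control cells, which carry the control lentivirus. Between DU145 control and PC3 control, 7 of the 10 members were called, where 64.9% of the 14952 genes tested were called (31.7% higher and 33.2% lower in DU145). OSMR, IL6R, IL6ST, LIFR and SOCS2 were higher in DU145 by log2 fold changes of 3.38, 1.14, 0.68, 1.31 and 0.93, and LIF was lower by a log2 fold change of -2.85 (edgeR, all adjusted p-values at or below 5.92e-11). STAT3 was the seventh. JAK1 at 0.46, JAK2 at -0.36 and SOCS3 at -0.20 passed the adjusted p (1.66e-08, 0.000439 and 0.00668), as did 86.3% of genes, without the fold change. Line and library run cannot be told apart in this comparison, and it shares its control libraries with the comparisons within lines.

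Per kilobase of annotated exon, LIF was the highest member in PC3 control cells, at 49.5 ± 3.21 normalised CPM per kb (SD, n = 3). SOCS3 (12.2) and IL6ST (11.5) came next with overlapping libraries, then JAK1 (9.76) and OSMR (9.70), which also overlapped, and below them SOCS2 (5.36), LIFR (4.04), IL6R (3.10) and JAK2 (2.76), each apart from the one before. In DU145 control cells OSMR led with 100.9 ± 2.17 normalised CPM per kb (SD, n = 3), followed by STAT3 (29.2), IL6ST (18.4) and JAK1 (13.5), all separated. SOCS3 (10.6), SOCS2 (10.2) and LIFR (9.27 to 10.6 over its libraries) overlapped as neighbours, as did IL6R and LIF (both 6.86), and JAK2 (2.15) was lowest. The leading gene was thus a ligand in PC3 and a receptor in DU145. With overexpression SOCS2 moved from above LIFR and IL6R to overlap with JAK2 and IL6R in PC3 (2.63), and from beside SOCS3 to below IL6R in DU145 (6.00).

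**Figure D4:**
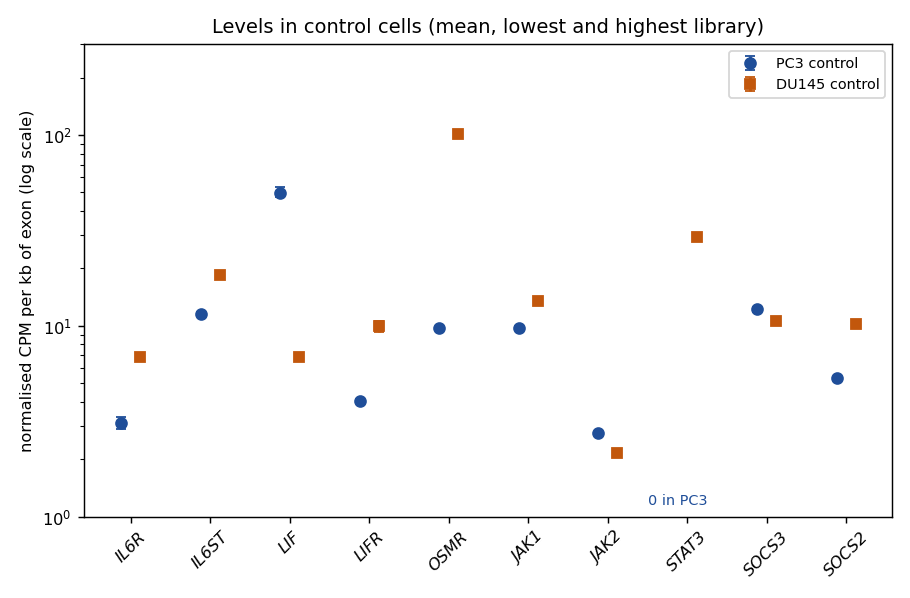
Normalised CPM per kb of exon (y axis, log scale) of the 10 members in PC3 and DU145 control cells; points are means of 3 libraries and bars run from the lowest to the highest library. LIF leads in PC3 at 49.5 and OSMR in DU145 at 100.9, and STAT3 is 0 in PC3.

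The difference between the lines in their response to ST6GAL1 was tested with an interaction term in a fit of all 11 libraries. Of 9 members with a value, none was called, where 8.72% of 14952 genes were called with edgeR (3.86% higher and 4.86% lower in DU145). Unlike the member counts, the shares over all genes in this comparison also include genes at 0 throughout a line. Of the members 6 had an unadjusted p under 0.05, for which the share over all genes is not given here. DESeq2 and limma-voom also called 0 members. Without DU145 OE replicate 3 IL6ST was called at 0.59, and with a correction for GC content SOCS3 was called at 0.70. By adjusted p alone 4 passed, all with a higher value in DU145, against 19.7% of genes: IL6ST, OSMR at 0.48 (edgeR adjusted p = 4.97e-05), SOCS3 at 0.48 (adjusted p = 0.00160) and IL6R at 0.36 (adjusted p = 0.0215). LIF at -0.28 (edgeR adjusted p = 0.145), LIFR at -0.12 (0.375), JAK1 at 0.01 (0.981), JAK2 at 0.21 (0.249) and SOCS2 at 0.25 (0.101) did not pass. ST6GAL1 itself differed by 1.06 (edgeR adjusted p = 0.000286), with a log2 fold change of 3.58 in PC3 and 4.65 in DU145, and the part of that in the members' differences was not tested.

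Other genes of the pathway were described from 4 lists with 63 genes in all, of which 50 were tested in PC3 and 55 in DU145. In PC3, 5 were called, all higher, and in DU145 13 were called, 7 higher and 6 lower, beside the 5.38% and 8.94% of all genes. Without the fold change threshold, 16 were higher and 11 lower in PC3, where 37.3% of all genes passed the adjusted p. In DU145 17 were higher and 8 lower, where 20.1% of all genes passed. The median log2 fold change over the lists was -0.03 in PC3 and 0.17 in DU145, against -0.00 over all genes in each line. Counts by unadjusted p in the lists are given without the share over all genes, so they cannot be set against it.

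Among 14 other ligands and receptors of the family, 6 were at or under 3 counts in every library, namely OSM, CNTF, IL27, EBI3, IL31 and CNTFR. The ligand of the highly read OSMR, oncostatin M, had at most 1 count in any library. IL6 was low in PC3, at 2 to 13 counts per library, and had 39 to 67 in DU145, where its log2 fold change was 0.26 (edgeR adjusted p = 0.439). In DU145, 2 of the 8 genes of the list tested were called, both lower, where 8.94% of all genes were called (4.61% lower). IL11RA, the IL-11 receptor, was read at 16.3, 17.1 and 16.3 normalised CPM in control and 7.80 and 10.6 in OE replicates, a log2 fold change of -0.83 (edgeR adjusted p = 0.00102). Its ligand IL11 was read at 5.62, 5.84 and 6.28 in control and 3.29 and 4.35 in OE replicates, with -0.61 (edgeR adjusted p = 0.0291), and lost its call with DESeq2 (adjusted p = 0.119), without OE replicate 2 (-0.44) and without any 1 of the control replicates (-0.66 to -0.58). With a correction for GC content, 1 gene of this list was called in DU145. In PC3 none of the 7 tested was called with edgeR, DESeq2 or limma-voom, where edgeR called 5.38% of all genes, and 3 had an unadjusted p under 0.05.

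Among 8 other JAK and STAT genes, STAT4, which acts in IL-12 signalling of lymphocytes, was called higher in both lines. In DU145 it was read at 19.5, 16.7 and 17.5 normalised CPM in control and 28.4 and 26.9 in OE replicates, a log2 fold change of 0.63 (edgeR adjusted p = 0.00111). In PC3 it was read at 2.74, 1.52 and 1.50 in control and 2.65, 4.30 and 2.84 in OE replicates, which overlapped, with 0.76 (edgeR adjusted p = 0.00655). Without PC3 OE replicate 2 the PC3 value was 0.49 (adjusted p = 0.138), and the DU145 value was 0.57 without control replicate 2 and 0.56 with a correction for GC content, both under the fold change threshold. The summed leukocyte markers were also higher with overexpression, at 0.758 to 0.953 normalised CPM in PC3 OE against 0.443 to 0.717 in PC3 control and at 2.71 to 2.96 in DU145 OE against 1.65 to 2.31 in DU145 control libraries, and their part in the STAT4 result was not tested. STAT5A fell in DU145, from 9.12, 7.80 and 9.27 normalised CPM to 4.51 and 4.69, a log2 fold change of -0.91 (edgeR adjusted p = 0.00114), while its neighbour STAT5B did not pass, at -0.10 (adjusted p = 0.400). By adjusted p alone, 4 of the 6 genes tested in PC3 were higher and 1 lower, where 37.3% of all genes passed. STAT2 of interferon signalling was higher at 0.45.

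The list of other inhibitors held 16 genes, the receptor sheddases ADAM10 and ADAM17 among them, and 15 were tested in each line. None was called with edgeR, DESeq2 or limma-voom, where edgeR called 5.38% of all genes in PC3 and 8.94% in DU145. Without the fold change threshold, 2 were higher and 3 lower in PC3, where 37.3% of all genes passed the adjusted p. In DU145 4 were higher and 0 lower, where 20.1% of all genes passed, and PTPN1 lay just inside the fold change threshold at 0.56. An unadjusted p under 0.05 was found for 7 in PC3 and 4 in DU145. The inhibitor genes called in PC3 were the members SOCS2 and SOCS3. The median log2 fold change of this list was -0.06 in PC3 and 0.14 in DU145.

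Among 25 genes described as STAT3 targets, 4 of 22 tested were called in PC3, all higher, in cells where STAT3 was read at 0. Over all genes tested in PC3, 5.38% were called (3.61% higher and 1.76% lower). Without the fold change threshold the targets went both ways, with 9 higher and 6 lower by adjusted p, where 37.3% of all genes passed. With a correction for GC content 5 targets were called. FOS, an immediate early transcription factor, was read at 0.784, 0.253 and 0.978 normalised CPM in PC3 control and 1.97, 2.04 and 1.14 in PC3 OE replicates, from 4 to 37 counts, with a log2 fold change of 1.35 (edgeR adjusted p = 0.000927). LCN2, an iron-binding acute phase protein, was read at 1.06, 2.40 and 1.63 in control and 2.65, 4.30 and 3.22 in OE replicates, with 1.03 (edgeR adjusted p = 0.000422). MUC1, a sialylated mucin, was read at 7.67, 6.83 and 7.17 in control and 10.9, 13.3 and 11.6 in OE replicates, with 0.73 (edgeR adjusted p = 2.66e-07). None of these groups overlapped. The remaining called gene, BCL6, a transcriptional repressor named here after its values were seen, had a log2 fold change of 0.64 (edgeR adjusted p = 1.11e-14). CEBPB, also named after its values were seen, was lower in PC3 without overlap of the groups. Its log2 fold change of -0.57 (edgeR adjusted p = 2.61e-08) lay just inside the fold change threshold.

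In DU145, 9 of 24 tested targets were called, 6 higher and 3 lower. Over all genes tested in DU145, 8.94% were called (4.33% higher and 4.61% lower). The falls were FGB, a fibrinogen chain, at 15.1, 14.4 and 11.5 normalised CPM in control and 4.71 and 3.91 in OE replicates (log2 fold change -1.67, edgeR adjusted p = 1.19e-05), then FOS and CCND1. FOS was read at 8.85, 14.4 and 7.70 in control and 3.61 and 4.47 in OE replicates, with -1.35 (edgeR adjusted p = 0.0187), opposite in direction to PC3. Without DU145 OE replicate 2 the FOS value was -1.23 and its call was lost (adjusted p = 0.0628). CCND1, the cyclin that drives entry into S phase, was read at 151.8, 151.1 and 167.5 in control and 75.0 and 89.5 in OE replicates, with -0.92 (edgeR adjusted p = 7.69e-06). The rises, listed after their values were seen, were CD44, a hyaluronan receptor (0.86), HIF1A, the hypoxia factor (0.78), CEBPB (0.74), VEGFA, an angiogenic growth factor (0.70), BCL6 (0.68) and MUC1 (0.61). CEBPB and MUC1 lost their calls without OE replicate 3 (0.46 and 0.48) or without control replicate 1 (0.66 and 0.52), and CEBPB also without control replicate 2 (0.68) and with no filter on low counts (0.73, adjusted p = 0.0846). With a correction for GC content CEBPB was at 1.12. The median of the tested targets was -0.02 in PC3 and 0.25 in DU145. The plot of the pathway lists shows every tested gene.

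**Figure D5:**
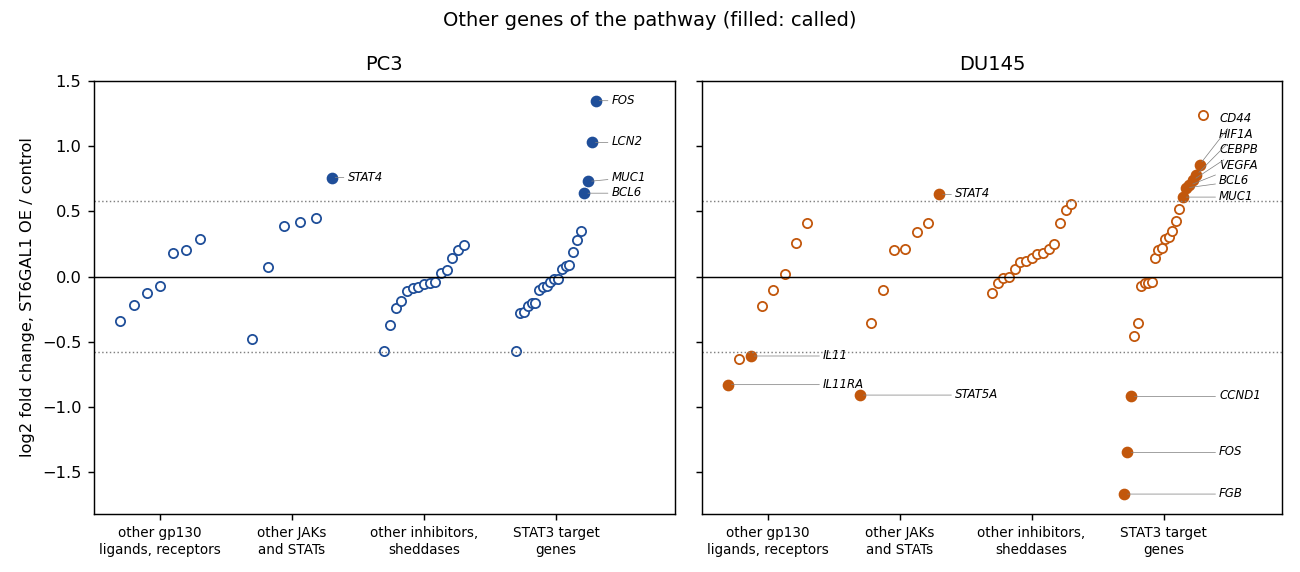
Log2 fold change with ST6GAL1 overexpression (y axis) of every tested gene of the 4 pathway lists in PC3 (50 genes) and DU145 (55 genes); filled points were called and are named, and dotted lines mark 0.58 on either side of 0. All 5 called genes are higher in PC3, and in DU145 7 are higher and 6 lower, with none among the other inhibitors and sheddases in either line.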

How the data were processed

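RNA from PC3 and DU145 cells was prepared with the TruSeq Stranded mRNA kit per the labels and sequenced as single reads. In Galaxy the authors used Cutadapt for trimming, HISAT2 for mapping to hg38 and featureCounts for counting, and they deposited raw counts by Entrez identifier. The counting annotation and strand setting are not given in the sources used here, so overlapping genes such as STAT5A and STAT5B cannot be separated where their exons share bases. Of 28395 identifiers, 97.7% matched RefSeq names. Samples were grouped by line and transduced particle from the labels.

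Each line was fitted with edgeR 4.0.16 in R 4.3.3 (filterByExpr at its defaults, TMM factors, robust quasi-likelihood test, Benjamini-Hochberg adjustment over all tested genes). The study used limma-voom, here an alternative (limma 3.58.1). Differences between lines were tested over all 11 libraries, as an interaction for the response and as a contrast of control groups for the levels. Genes at 0 throughout a line have no interaction value. Standard errors are the log2 fold change divided by the root of F. Biological coefficients of variation were 0.0226 (PC3) and 0.0817 (DU145). Normalised CPM use TMM factors over all libraries, and levels between genes are per kb of GENCODE exons. The fits were tested on simulated data. Other alternatives were RLE factors, DESeq2 1.42.0, no filter, at least 10 counts in every sample, a replicate block, each replicate left out, other fold change thresholds and, chosen after seeing the data, a GC correction.

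The members, lists and tests were chosen with earlier results of these data known. Named genes were all members and, per list and line, up to 3 called genes by absolute log2 fold change. Some results, promoter sequences among them, are not reported here.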

Additional observations from a re-analysis of the deposited data

Results flagged for a closer look

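The response to ST6GAL1 overexpression differed between the lines, by the edgeR test of the difference itself, for the following genes. Each value is the DU145 log2 fold change less the PC3 one. ST6GAL1 differed by 1.06, in a comparison where the overexpression itself was of unequal size in the lines. Among members, IL6ST differed by 0.55, OSMR by 0.48, SOCS3 by 0.48 and IL6R by 0.36, all under the fold change threshold of 0.58. IL6ST is the member with opposite directions in the lines, each past the adjusted p, at -0.21 in PC3 and 0.35 in DU145.

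Of the other pathway genes, the difference was positive for CEBPB (1.31, edgeR adjusted p = 0.00261), CD44 (1.06, adjusted p = 1.34e-09), STAT6 (0.88, adjusted p = 4.64e-06), HIF1A (0.69), VEGFA (0.64), IL31RA (0.61, adjusted p = 0.0327), MYC (0.61) and PTPN1 (0.60). It was negative for FOS (-2.70, edgeR adjusted p = 0.00840), IL11RA (-1.13, adjusted p = 5.54e-05) and CCND1 (-0.69). Of these 11 genes IL31RA was the least stable, losing its call in 7 of 11 fits that left out a library (lowest value 0.50). PTPN1 lost its call in 2 of these fits (lowest value 0.55) and MYC in 1 (0.48). STAT6, the transcription factor of IL-4 signalling, was read at 23.5 to 28.8 normalised CPM in PC3 control and 17.8 to 19.1 in PC3 OE libraries, and at 122.9 to 128.1 in DU145 control and 156.1 and 174.3 in DU145 OE libraries. No group had the 4 samples needed to test a library as an outlier within its group.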

How the results depend on the processing

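Without a fold change threshold, the members called were 6 in PC3 and 4 in DU145 and for the interaction, and the pathway genes 27, 25 and 19. Above an absolute log2 fold change of 1, members called were 1 in PC3 and 0 in DU145, and pathway genes 2, 2 and 4. With the GC correction, chosen after seeing the data, the interaction called 1 member, SOCS3, at 0.70. Leaving out each replicate in turn, members called ranged from 1 to 2 in PC3, 1 to 3 in DU145 (3 without OE replicate 3, adding LIF and OSMR) and 0 to 1 for the interaction (IL6ST, at 0.59 without DU145 OE replicate 3), and stayed at 7 between the lines; pathway genes ranged from 5 to 6, 10 to 15 and 9 to 15. Without a DU145 OE replicate, the lone OE library left was assumed to vary like the controls. Signs turned, all at values near 0, for JAK2 in PC3 (0.00 with the replicate block, 0.03 with the GC correction, -0.02 to 0.03 over replicates left out), for LIFR in DU145 (-0.06 with the GC correction, -0.06 to 0.08), SOCS3 in DU145 (0.09 with the GC correction), JAK1 in DU145 (-0.10 to 0.02) and JAK1 in the interaction (-0.05 with the GC correction, -0.05 to 0.05). The cause was not tested. Over the other alternatives, 95 of 97 values of named genes in PC3, 154 of 161 in DU145, 134 of 139 for the interaction and 59 of 59 between the lines kept direction and call.

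With the replicate number as a block, members called were 2 in PC3, 1 in DU145 and 0 for the interaction, and pathway genes 5, 13 and 11, the same genes as without it except in DU145, where MUC1 lost its call at 0.53 and PTPN1 was called at 0.60. Same-numbered libraries had correlations of deviations of 0.03, 0.07 and 0.01 in PC3, where not every library correlated best with its own number, and of 0.18 and 0.48 in DU145, so the numbers were not shown to pair the samples.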
